A study of Mus musculus with 4 samples.

Results

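The IL-6 family genes *Il6*, *Lif*, *Cntf*, *Osm*, *Clcf1*, *Osmr*, *Lifr*, *Il6st*, *Il6ra* and *Il11ra1* were taken by symbol, 10 of the 19095 genes with at least 1 unique molecular identifier (UMI, a tag that marks 1 captured RNA molecule) in the filtered cells. The data are droplet single cell RNA-seq of lumbar dorsal root ganglia (DRG), the clusters of sensory neuron cell bodies beside the spinal cord, from C57BL/6 female mice 8 to 12 weeks old. Of 4 libraries, 2 were from uninjured ganglia (control) and 2 from ganglia 3 days after a crush of the sciatic nerve (injury). No transgene, Cre or test drug was part of either group. For surgery the study's methods give isoflurane anesthesia and buprenorphine analgesia, and the sample titles do not say whether control mice received them. All cells were enzymatically dissociated and sorted as live. The study's methods state that each replicate batch pooled the cells of several mice. The p-values therefore measure the spread between these libraries, not between animals.

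Most cytokines of this family act on target cells through receptors that contain the signalling subunit gp130, encoded by *Il6st*. *Il6ra*, *Il11ra1* and *Cntfr* encode the ligand-binding chains for IL-6, IL-11 and ciliary neurotrophic factor (CNTF), while *Lifr* and *Osmr* encode the longer chains that pair with gp130 for leukemia inhibitory factor (LIF), CNTF and oncostatin M. Receptor engagement activates JAK kinases and the transcription factor STAT3, which induces its own inhibitor *Socs3*. In peripheral nerve the family is known for its part in the response of axotomized neurons and of glia to injury.

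Cells were assigned to types by a marker gate, and no member of the family was a marker. A cell took the type with the largest share of its listed markers at 1 UMI or more, if at least 3 were. Of 6095 filtered cells 5495 were assigned (90.2%), 84 were tied and 516 reached no list. The main types were satellite glial cells (SGC, 1417 cells), fibroblasts (1309), macrophages (1026) and endothelial cells (453). Smaller gates held smooth muscle cells (242), myelinating Schwann cells (239), pericytes (205), a monocyte gate (125), neutrophils (107), non-myelinating Schwann cells (74), neurons (66), dendritic cells (51), erythroid cells (44) and 35 barrier cells with *Cldn1* and *Kcnj13*. At least 2 of each gate's own markers were among its top 10 genes, no independent check, as cells were gated on these markers. The monocyte gate had 3 (*Ly6c2*, *Plac8* and *Ms4a4c*) beside 5 genes known from granulocyte precursors (*Elane*, *Prtn3*, *Ctsg*, *Mpo* and *Ms4a3*), so its cells are named by the gate alone. Gates for T cells (58), B cells (31) and NK cells (13) had 10 or more cells in only 1 library each and were left out of the comparison of types. The gates overlap: 177 of the smooth muscle cells, 68 of the neutrophils, 41 of the monocyte gate, 43 of the neurons, 33 of the non-myelinating Schwann cells and 30 of the barrier cells also reached a second list. Control replicates 1 and 2 and injury replicates 1 and 2 held 1301, 1341, 2377 and 1076 filtered cells with median depths of 2775, 4054, 3110 and 4845 UMIs. Values below are given in that order of libraries, as CPM, the UMIs of a gene per 1000000 UMIs of the summed cells of 1 library and type. The summed level of 6 immediate early genes (*Fos*, *Fosb*, *Jun*, *Junb*, *Egr1* and *Ier2*) was 16830, 5906, 8156 and 4266 CPM in macrophages, 20938, 6843, 12379 and 7330 CPM in fibroblasts, 12460, 2567, 6385 and 3317 CPM in SGC and 20005, 8762, 16653 and 12616 CPM in endothelial cells, higher in replicate 1 of both conditions. It was at 2846, 2263, 2302 and 2790 CPM in neutrophils and at 6045, 6278, 5505 and 4091 CPM in the monocyte gate, where replicate 1 was the higher in 1 condition only. Its part in the results was not tested.

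**Figure D1:**
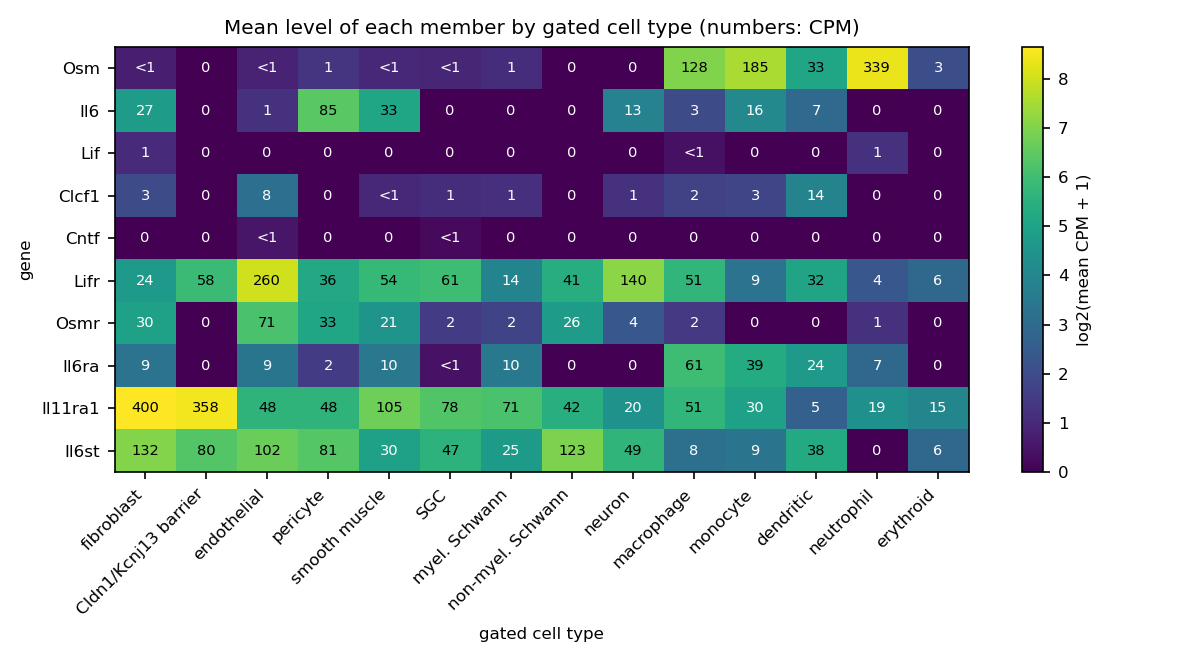
Heat map of the mean level of the 10 genes (rows) in 14 gated cell types (columns); colour is log2(mean CPM + 1) and the printed number is the mean CPM over libraries with 10 or more cells of the type. The ligand *Osm* is highest in neutrophils, the monocyte gate and macrophages, *Lifr* in endothelial cells and neurons, and *Il11ra1* in fibroblasts and barrier cells.

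Ligand transcripts came from myeloid and stromal cells. Over the filtered cells *Osm* had 1173 UMIs and *Il6* 321, whereas *Clcf1*, which encodes cardiotrophin-like cytokine factor, had 82, *Lif* 11 and *Cntf* 2. *Osm* encodes oncostatin M, a cytokine of activated leukocytes. Macrophages held 63.1% of its UMIs, neutrophils 13.1% and the monocyte gate 11.1%. *Il6* UMIs lay in fibroblasts (48.0%), pericytes (16.5%) and smooth muscle cells (11.2%), with 12.5% in cells of no gate.

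The starts of these genes were read from RefSeq on GRCm38.p6. The table of promoters covered 8 of the 10 members, and *Osm* and *Clcf1* were not among them. Windows from 250 bases before to 50 after each start were searched on both strands for a STAT element (TTCNNNGAA, in 8.30% of all 32851 windows), an AP-1 element (TGANTCA, 7.81%), a kB-type element (GGGANTTTC, 1.11%) and the cAMP response element (TGACGTCA, 1.79%). *Il6* held 1 AP-1 and 1 kB-type match, *Lif*, *Cntf* and *Osmr* held 1 AP-1 match each, and the windows of *Lifr*, *Il6st*, *Il6ra* and *Il11ra1* held none. The ligand *Il6* and the receptor *Osmr* are shown because they had the largest differences between conditions in fibroblasts below. Each sequence runs from 250 bases before to 20 after the start, and capitals mark the matches (in *Il6* the AP-1 and then the kB-type element, in *Osmr* AP-1).
*Il6* (chr5:30012864-30013133, plus strand): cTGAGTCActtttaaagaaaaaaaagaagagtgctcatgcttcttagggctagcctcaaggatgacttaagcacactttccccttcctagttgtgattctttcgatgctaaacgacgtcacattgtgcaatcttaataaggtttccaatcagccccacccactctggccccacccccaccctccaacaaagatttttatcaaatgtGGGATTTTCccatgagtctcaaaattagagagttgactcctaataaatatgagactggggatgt
*Osmr* (chr15:6874294-6874563, minus strand): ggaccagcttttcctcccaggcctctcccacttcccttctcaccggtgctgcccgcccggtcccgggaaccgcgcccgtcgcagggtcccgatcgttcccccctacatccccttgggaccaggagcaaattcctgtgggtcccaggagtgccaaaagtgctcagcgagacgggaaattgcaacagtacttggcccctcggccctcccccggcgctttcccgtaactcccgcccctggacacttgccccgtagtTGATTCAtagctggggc
The GC content of the whole window was 44% for *Il6* and 66% for *Osmr*. A match is a description of the sequence alone.

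*Osm* was at 443, 214, 506 and 191 CPM in neutrophils (338 ± 160, SD, n = 4 libraries). It was at 293, 141, 222 and 80.9 CPM in the monocyte gate and at 161, 81.1, 190 and 81.9 CPM in macrophages (128 ± 55.5). In all 3 types replicate 1 was above replicate 2 in both conditions. The monocyte gate overlapped both other types, while the lowest neutrophil library (191 CPM) was just above the highest macrophage library (190 CPM). Dendritic cells were at 33.5 ± 28.1 CPM (n = 2), and in the other types compared the mean *Osm* level was at most 3.24 CPM (erythroid cells). T cells and B cells held 1 *Osm* UMI each and NK cells none. A UMI of *Osm* was found in 50.5% of neutrophils, 39.2% of the monocyte gate and 30.8% of macrophages, against 0.353% of SGC, at median depths of 4459, 4484, 4099 and 3969 UMIs. With each cell of 1000 or more UMIs thinned to 1000, and shallower cells left out, these shares were 23.2%, 16.1%, 11.6% and 0.0846%. *Osm* lies on chromosome 11 (chr11:4236420-4241026, plus strand) 16530 bases from *Lif* (chr11:4257557-4272514, plus strand) with no annotated gene between them. *Lif*, with 11 UMIs in all, had 3, 1, 3 and 4 UMIs by library, too few for a comparison.

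*Il6* (chr5:30013114-30019981, plus strand) was at 22.1, 7.32, 55.7 and 22.0 CPM in fibroblasts. The higher injury library stood above both controls and the other was at the level of control replicate 1, so the conditions overlapped. In pericytes *Il6* was at 83.3 and 0 CPM in the control libraries and at 171 CPM in injury replicate 1, and smooth muscle cells were at 21.8 and 0 CPM and at 76.4 CPM in the same libraries. The 0 of control replicate 2 is from 16 pericytes and 32 smooth muscle cells, too few to show absence. Injury replicate 2 held fewer than 10 cells of either type. A few cells carried much of the *Il6* RNA: in fibroblasts 60 of 1309 cells (4.58%) had a UMI (thinned share 1.65%), and 1 cell held 26 of the 85 UMIs of injury replicate 1. With the top cell of each library left out the fibroblast levels were 15.3, 5.50, 38.7 and 18.5 CPM. No *Il6* UMI was detected in the 1417 SGC, where 3 counts would be 0.212% of cells, nor in neutrophils or either Schwann gate. That limit is on cells with a UMI, not on cells that express the gene. Neurons, counted without the upper limits on UMIs and genes because most exceed them, had 26 *Il6* UMIs in 18 of 272 cells, or 0, 2.67, 2.51 and 5.56 CPM.

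**Figure D2:**
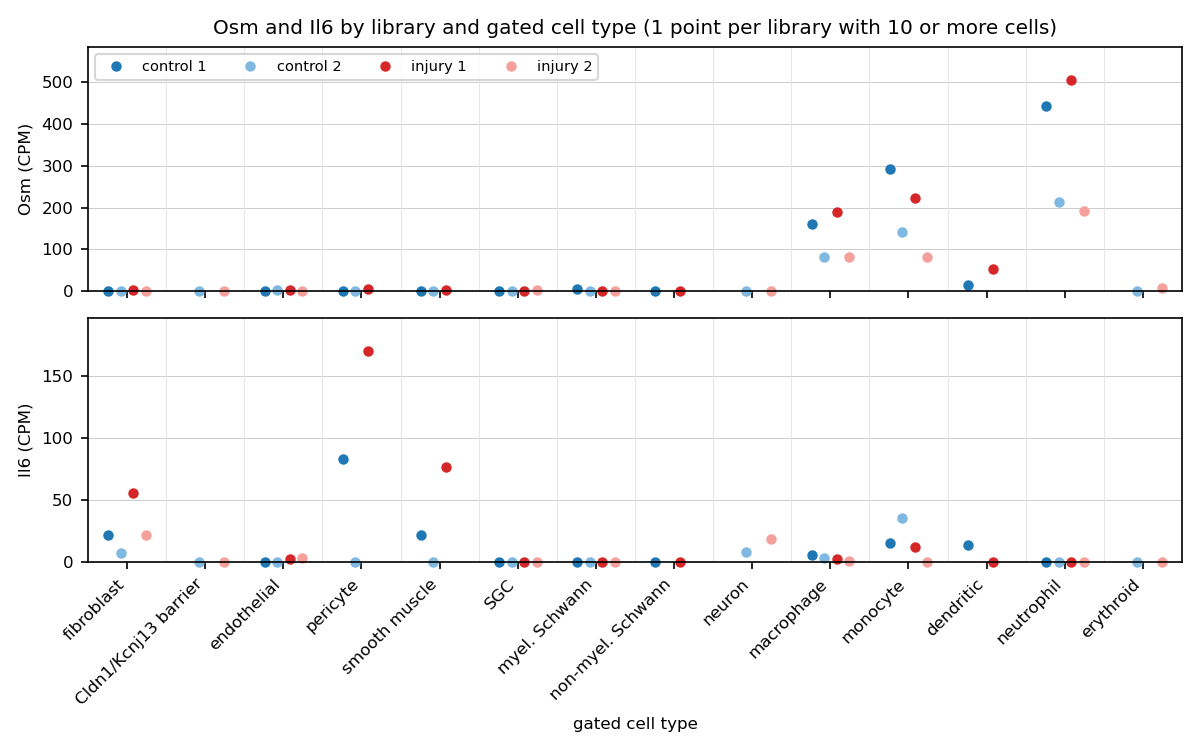
*Osm* (top) and *Il6* (bottom) in CPM on a linear axis by gated cell type; 1 point is 1 library with 10 or more cells of the type, coloured by library. *Osm* in neutrophils runs from 191 to 506 CPM with replicate 1 above replicate 2 in both conditions. *Il6* in pericytes runs from 0 CPM, in the 16 cells of control replicate 2, to 171 CPM.

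*Clcf1* (chr19:4214238-4223490, plus strand) had 22, 23, 29 and 8 UMIs by library. Its mean was 8.02 ± 4.29 CPM in endothelial cells and 2.90 ± 0.69 CPM in fibroblasts (SD, n = 4), and the 2 dendritic libraries were at 0 and 27.1 CPM. No *Clcf1* UMI was found in neutrophils or pericytes. *Cntf* (chr19:12763660-12765632, minus strand), known as a factor of Schwann cells, had 2 UMIs, both in injury replicate 2, 1 in an endothelial cell and 1 in an SGC. Its annotated exons share 847 of 1073 bases (78.9%) with *Zfp91* on the same strand, so reads from this stretch could not be assigned to 1 gene and the *Cntf* count is uncertain. Exons of *Clcf1* share 311 bases (8.17%) with AC109138.7 on the same strand.

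Among the receptor chains, *Lifr* (chr15:7090614-7197489, plus strand) was highest in endothelial cells and neurons. It was at 252, 376, 179 and 234 CPM in endothelial cells (260 ± 82.9, SD, n = 4), each library above every library of SGC, which were at 68.4, 76.3, 38.9 and 60.7 CPM. Neurons without the upper limits were at 225 and 217 CPM in control and at 119 and 171 CPM after injury. In this set they overlapped endothelial cells, whose values are from the filtered cells. Neurons within the upper limits were at 109 and 171 CPM (n = 2 libraries), below every endothelial library. Macrophages were at 76.7, 38.8, 40.8 and 48.0 CPM and fibroblasts at 21.2, 23.8, 17.0 and 33.3 CPM, so macrophages and SGC overlapped while fibroblasts were below both. A *Lifr* UMI was present in 62.7% of endothelial cells (thinned 22.6%) and in 82.7% of the deeper neurons (thinned 16.8%), against 2.80% of neutrophils (thinned 0.489%). The median depth of the 272 neurons was 21520.5 UMIs and that of endothelial cells 4356.

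*Osmr* (chr15:6813577-6874969, minus strand), the chain that gives oncostatin M its own receptor, lies 215644 bases from *Lifr* with 1 non-coding gene between them. Its endothelial level was 76.5, 56.7, 92.7 and 57.3 CPM (70.8 ± 17.3) and its fibroblast level 20.4, 22.0, 44.5 and 31.9 CPM (29.7 ± 11.1). Every endothelial library was above every fibroblast library. In fibroblasts both injury libraries were above both controls. Pericytes (32.9 ± 19.1 CPM, n = 3) and smooth muscle cells (21.0 ± 19.4, n = 3) overlapped fibroblasts. Levels were low in the cells with the most *Osm*: *Osmr* was at 1.70 ± 2.83 CPM in macrophages and 1.36 ± 2.72 CPM in neutrophils, and no UMI was found in the monocyte gate. SGC had 14 *Osmr* UMIs in 1417 cells (1.85 ± 1.40 CPM).

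*Il6ra* (chr3:89864059-89913196, minus strand) encodes the ligand-binding chain for IL-6. Macrophages held 63.2% of its UMIs, at 83.8, 59.9, 47.4 and 53.4 CPM, and the monocyte gate was at 54.8, 17.7, 61.8 and 22.1 CPM, overlapping them. In macrophages both control libraries were above both injury libraries. SGC had 3 UMIs of *Il6ra* and neurons without the upper limits also 3. Exons of *Il6ra* share 242 bases with the antisense gene Gm42809, which a strand-specific count can tell apart and any other cannot. *Il11ra1* (chr4:41699989-41769474, plus strand), the chain for IL-11, was at 457, 456, 318 and 370 CPM in fibroblasts (400 ± 68.4), which held 66.6% of its UMIs, and at 341 and 375 CPM in the 2 libraries with 10 or more barrier cells. These overlapped, and both were above smooth muscle cells (105 ± 39.8 CPM, n = 3) and SGC, which were at 87.9, 78.7, 76.2 and 68.9 CPM. *Il11ra1* has near-identical copies in the mouse genome (*Il11ra2*, Gm13305 and Gm13306) that could take part of its reads, so its level is uncertain.

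The shared subunit *Il6st* (chr13:112464070-112510086, plus strand) was detected in each of the types compared except neutrophils. It was at 170, 102, 147 and 109 CPM in fibroblasts (132 ± 32.0, SD, n = 4) and at 144, 96.7, 108 and 60.7 CPM in endothelial cells, which overlapped. SGC were at 48.8, 48.2, 47.7 and 42.3 CPM. The 2 libraries with 10 or more non-myelinating Schwann cells were at 183 (control, 20 cells) and 63.4 CPM (injury, 43 cells). The whole gate held 14 *Il6st* UMIs, too few to compare the conditions. Macrophages were at 8.15 ± 4.46 CPM, below every SGC library, and no UMI was detected in 107 neutrophils, for which a floor of 3 counts would be 2.80% of cells with a UMI or 6.02 CPM. An *Il6st* UMI was found in 39.5% of fibroblasts (thinned 12.2%), 18.1% of SGC (thinned 4.37%) and 3.61% of macrophages (thinned 0.648%), whose median depths were 4107, 3969 and 4099 UMIs. Counted per cell, *Il6st* was found in 91 of the 284 endothelial cells with a *Lifr* UMI and in 44 of the 113 with *Osmr*. Of all 453 endothelial cells, 138 had it. It was found in 374 of the 951 fibroblasts with *Il11ra1* (517 of all 1309 fibroblasts). In macrophages it was found in 9 of the 235 with *Il6ra* (37 of all 1026). These are counts of detection at the depths given.

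**Figure D3:**
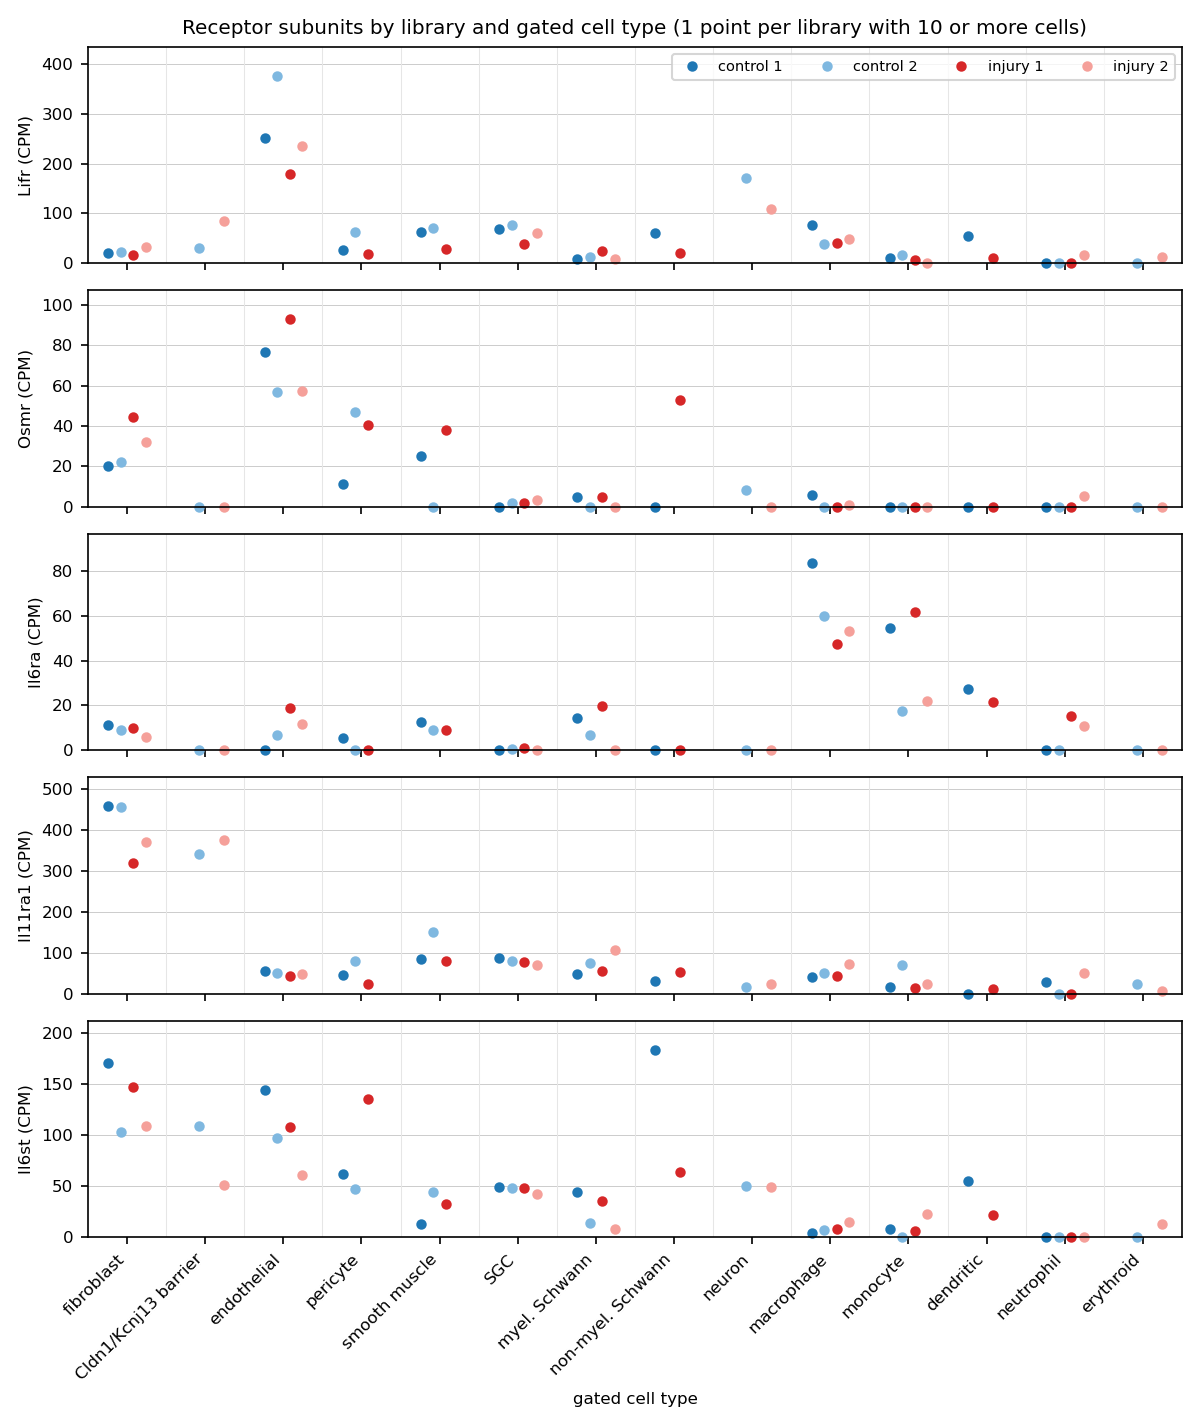
*Lifr*, *Osmr*, *Il6ra*, *Il11ra1* and *Il6st* (top to bottom) in CPM on linear axes by gated cell type; 1 point is 1 library with 10 or more cells of the type, coloured by library. Endothelial cells lead for *Lifr* and *Osmr*, macrophages for *Il6ra* and fibroblasts for *Il11ra1*, and *Il6st* lies at 0 in all 4 neutrophil libraries.

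Differences between types were tested on raw UMIs summed per library and type (44 sums, 7543 genes) with edgeR's quasi-likelihood test, each of 14 types against the mean of the other 13 with a call where the p adjusted by Benjamini-Hochberg was under 0.05. *Lif*, *Cntf* and *Clcf1* did not pass the filter on low counts. For the 7 members tested, 29 pairs of gene and type were called higher: 5 in fibroblasts (where 35.1% of all genes were called higher), 4 in endothelial cells (29.7%), 3 each in macrophages (33.5%), SGC (34.4%), the monocyte gate (21.9%), pericytes (18.4%) and smooth muscle cells (23.2%), 2 in neurons (25.3%), and 1 each in neutrophils (15.7%), dendritic cells (11.5%) and barrier cells (9.25%). No member was called higher in myelinating (21.8%) or non-myelinating Schwann cells (9.04%) or in erythroid cells (10.7%). The reference of this test is a mean of log levels that includes types without any UMI of the gene, so its folds are large and a low level can be called. Each SE given below is the absolute log2 fold divided by the square root of the test's F value, not a separate estimate. Against the summed other gated cells of the same library, 14 pairs were called higher.

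In that comparison with the pooled rest of the ganglion, fibroblasts were higher for 4 members (background 18.4% of genes): *Il11ra1* by 2.82 on the log2 scale (SE 0.16), *Il6* by 2.17 (SE 0.36), *Il6st* by 1.82 (SE 0.22) and *Osmr* by 1.33 (SE 0.27). Endothelial cells were higher for *Osmr* by 2.55 (SE 0.19), *Lifr* by 2.41 (SE 0.14) and *Il6st* by 0.63 (SE 0.17), where 19.7% of genes were called. Macrophages (23.1%) were higher for *Il6ra* by 3.40 (SE 0.22) and *Osm* by 3.31 (SE 0.31). The monocyte gate (9.94%) was higher for *Osm* by 2.15 (SE 0.28) and *Il6ra* by 1.11 (SE 0.44), and neutrophils (8.59%) for *Osm* by 4.09 (SE 0.36). *Il6* was higher in pericytes (5.38%) by 2.88 (SE 0.41) and in smooth muscle cells (11.6%) by 1.51 (SE 0.42). The adjusted p of these 14 calls (edgeR) ran from 3.65e-27 for *Osm* in neutrophils to 0.0333 for *Il6ra* in the monocyte gate. The smooth muscle call of *Il6* was lost in the comparison of types when injury replicate 1 was left out, and with DESeq2. Lower calls were made in several types, and for a gene near 0 UMIs in a type no other call was open. In myelinating Schwann cells 0 of 6 members tested were higher than in the pooled rest and 5 were lower. Of all 10126 genes there, 987 were higher and 1975 lower. Among neurons within the upper limits 0 of 7 members were higher and 4 were lower, where 1887 of 11982 genes were higher and 3224 lower. In SGC no member was higher than in the pooled rest (22.0% of genes higher, 28.4% lower), and 6 of the 7 tested were lower. These were *Il6st* by a log2 fold of -0.42 (SE 0.14), *Il11ra1* by -1.06 (SE 0.15), and *Osmr*, *Il6ra*, *Osm* and *Il6*, with edgeR adjusted p from 6.88e-07 to 0.0290. The folds were -3.22 (SE 0.32) for *Osmr*, -5.28 (SE 0.44) for *Il6ra* and -5.69 (SE 0.45) for *Osm*. These SE come from the F value and do not show the counting error of the few UMIs in SGC. *Osmr*, *Il6ra*, *Osm* and *Il6* had 14, 3, 6 and 0 UMIs in SGC. They passed the filter on low counts through the other cells, so a lower call was the only one open to them.

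Within the fibroblasts, cells with a UMI of *Pi16* or *Dpp4*, markers of adventitial fibroblasts, numbered 234. Their *Il6* level was 9.73, 3.04, 14.9 and 17.5 CPM (2, 1, 4 and 5 UMIs). In the other 1075 it was 24.7, 8.39, 64.4 and 23.1 CPM (24, 11, 81 and 26 UMIs). The latter were higher in each library, but with so few UMIs in the former the difference is uncertain, and it was not tested. *Il11ra1* was at 598, 502, 372 and 409 CPM in the former and at 428, 445, 307 and 359 CPM in the latter, higher in the former in each library. For *Il6st* the means were 132 ± 23.9 and 132 ± 34.3 CPM.

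Over the 44 sums of library and type, the expression patterns closest to each member by Pearson's r of log2(CPM + 1), among 5847 candidate genes, were those of *Igsf6* (0.96), *Hcst* (0.95) and *Pirb* (0.95) for *Osm* and of *Lat2* (0.75), *Clec4a1* (0.75) and *Gngt2* (0.75) for *Il6ra*. *Pi15* (0.65), *Myadm* (0.64) and *Kcne4* (0.63) were closest to *Il6*. *Cxcl12* (0.81), *Tmem204* (0.76) and *Lmcd1* (0.74) were closest to *Osmr*, and *Rab4a* (0.81), *Mkl2* (0.77) and *Arl6* (0.77) to *Lifr*. *Aff4* (0.85), *Gnas* (0.85) and *Chmp7* (0.83) were closest to *Il6st*, and *Efemp2* (0.78), *Gpx7* (0.77) and *Laptm4b* (0.77) to *Il11ra1*. The sums share libraries and depth, and these values describe likeness only.

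To ask whether nerve crush changed the family within a cell type, the 2 injury libraries were compared with the 2 controls in the 7 types with at least 10 cells in every library. None of the 20 tests of a member was called in endothelial cells, fibroblasts, macrophages, the monocyte gate, myelinating Schwann cells, neutrophils or SGC. The background was the same: edgeR called 0% of 6145, 9189, 7213, 2091, 2606, 1222 and 9075 genes in these types, with 107, 160, 549, 35, 53, 3 and 106 genes at an unadjusted p under 0.05. DESeq2 called 10 genes in fibroblasts, 22 in macrophages, 1 in SGC and 0 in the others, and no member among them. At an unadjusted p under 0.05 were 2 of the 20 tests, *Osmr* in fibroblasts and *Il6ra* in macrophages.

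*Osmr* in fibroblasts had a log2 difference, injury minus control, of 0.92 (SE 0.31; edgeR adjusted p = 0.999), with both injury libraries above both controls as given above. *Il6* in fibroblasts had a difference of 1.54 (SE 0.66; edgeR adjusted p = 0.999), and the 2 conditions overlapped. With 1 library left out, the log2 difference of *Il6* ran from 0.62 (without injury replicate 1) to 2.53 (without control replicate 1). Only the latter fit called it (edgeR adjusted p = 0.000123), where 69 of 9988 genes (0.691%) were called. Its control arm is 1 library, assumed to vary like the injury pair. No other alternative called a member. *Il6ra* in macrophages had a difference of -0.69 (SE 0.28; edgeR adjusted p = 0.646), and -0.93 to -0.30 over the alternatives. *Osm* differed by 0.03 (SE 0.54) in macrophages, by -0.05 (SE 0.74) in neutrophils and by -0.61 (SE 0.61) in the monocyte gate, each within the spread between libraries. Over the 20 tests the differences ran from -0.69 to 1.54.

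*Lifr* had values below 0 in 3 of the 4 types in which it was tested. The log2 difference was -0.54 (SE 0.26) in endothelial cells, -0.52 (SE 0.31) in SGC and -0.61 (SE 0.36) in macrophages, against 0.20 (SE 0.36) in fibroblasts, and the edgeR adjusted p lay between 0.725 and 1.00. In endothelial cells and SGC both control libraries were above both injury libraries, while in macrophages the conditions overlapped. With 1 library left out the endothelial difference ran from -0.77 to -0.19 and that in SGC from -0.86 to -0.21. *Il6st* differed by -0.38 (SE 0.36) in endothelial cells, -0.02 (SE 0.34) in fibroblasts and -0.05 (SE 0.27) in SGC. *Il11ra1*, tested in 5 of the types, ran from -0.35 in fibroblasts to 0.32 in myelinating Schwann cells.

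**Figure D4:**
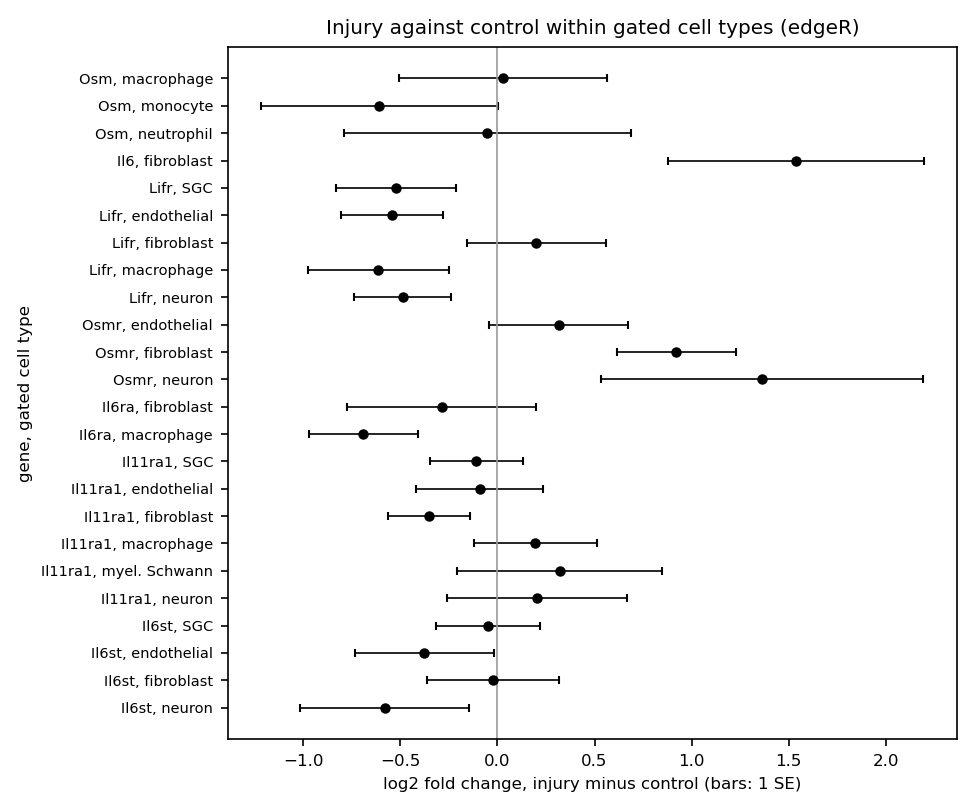
Log2 fold change, injury minus control, for each member tested in each gated cell type, neurons counted without the upper limits. Bars are 1 SE, derived from the test's F value. *Osmr* and *Il6* in fibroblasts (0.92 and 1.54) and *Osmr* in neurons (1.36) lie to the right of 0 and *Lifr* in endothelial cells, SGC, macrophages and neurons to the left, and no value passed the test.

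Over all filtered cells 8 members could be tested (0% of 13165 genes called by edgeR, 181 at an unadjusted p under 0.05, and 6 called by DESeq2). None was called by either tool, and none had an unadjusted p under 0.05. *Osm* was at 84.1, 11.5, 63.8 and 27.2 CPM and *Il6* at 20.3, 2.92, 19.0 and 7.23 CPM, both higher in replicate 1 of each condition. The macrophage gate, which held most of the *Osm* UMIs, took 251, 78, 493 and 204 of the filtered cells. In sums over all cells, fewer cells of a type and less RNA per cell cannot be told apart. The log2 differences were 0.28 (SE 1.04) for *Il6* and -0.46 (SE 0.42) for *Lifr*.

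Neurons were tested without the upper limits, with 21, 152, 27 and 72 cells by library. Here 11 of 9950 genes were called (0.111%), all higher after injury, and none of the 4 members that could be tested. No member had an unadjusted p under 0.05, and DESeq2 also called none of them. *Lifr* was at 225 and 217 CPM in control and at 119 and 171 CPM after injury, without overlap (log2 difference -0.49, SE 0.25; edgeR adjusted p = 0.612). *Il6st* was at 162, 76.9, 89.4 and 56.8 CPM (-0.58, SE 0.43; adjusted p = 0.731), and the conditions overlapped. *Cntfr*, the CNTF-binding chain, was at 45.1, 93.9, 50.1 and 54.8 CPM.

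*Osmr* in neurons was at 3.47, 7.43, 2.51 and 24.2 CPM (log2 difference 1.36, SE 0.83; edgeR adjusted p = 0.662). Injury replicate 2 was above the other libraries and injury replicate 1 below them. The UMIs were concentrated in few cells, with the top cell of each library holding 2 of 3, 14 of 25, 1 of 3 and 19 of 61. Of the 4 neurons with a UMI of *Nppb* or *Sst*, markers of itch neurons that express the IL-31 receptor, 2 had *Osmr*. These 4 cells held 29 of the 92 *Osmr* UMIs and 10 UMIs of *Il31ra*, whose product pairs with the *Osmr* chain. A *Mrgprd* UMI without either marker was present in 12 neurons, of which 5 had *Osmr*, against 19 of the other 256 neurons. Median depths were 27936, 76820.5 and 20999 UMIs, and the thinned shares were 23.8%, 3.76% and 0.408%. All 4 cells with *Nppb* or *Sst* were in the injury libraries, 1 in replicate 1 and 3 in replicate 2. In neurons with a UMI of *Sprr1a*, a gene of injured neurons, *Lifr* was at 165 CPM (38 cells, all but 1 in the injury libraries), and in the other 234 it was at 195 CPM.

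**Figure D5:**
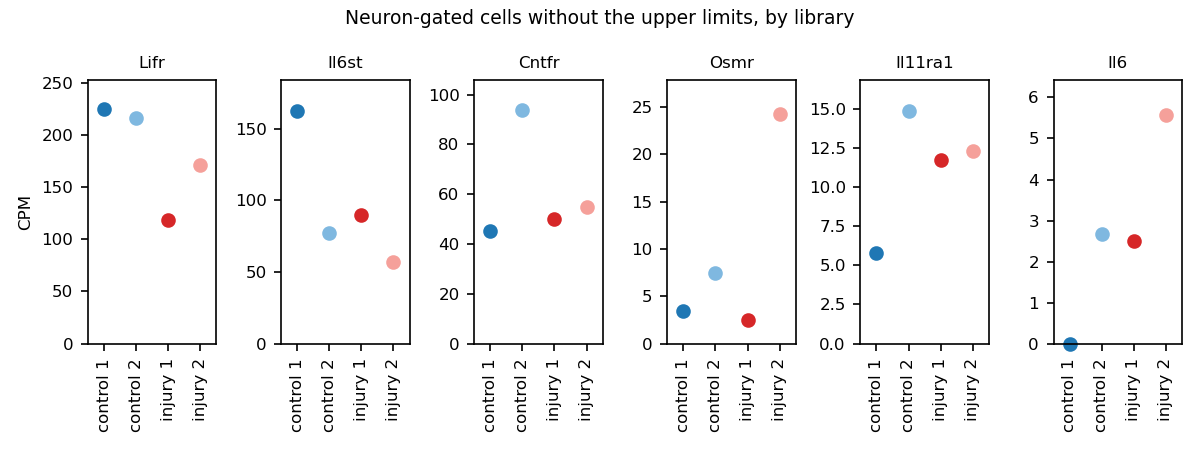
*Lifr*, *Il6st*, *Cntfr*, *Osmr*, *Il11ra1* and *Il6* in neurons without the upper limits, in CPM on linear axes that start at 0; 1 point is 1 library. *Lifr* is at 217 to 225 CPM in the control libraries and at 119 to 171 CPM in the injury libraries, and *Osmr* is at 24.2 CPM in injury replicate 2 and at most 7.43 CPM in the others.

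Other genes of the pathway were counted in 3 lists: 11 further ligands and receptors of the family, 12 genes of JAK and STAT3 signalling, and 20 genes known to respond to STAT3. The lists were chosen with earlier results of these data known, and the last holds genes of injured neurons such as *Sprr1a*. Their calls and medians are therefore a description and no independent test of the pathway. In the 7 types edgeR's test with all 4 libraries called no gene of any list between conditions. For SGC 3, 8 and 11 genes of the lists could be tested, with median log2 differences of -0.15, 0.13 and 0.49 (all genes 0.00), and for fibroblasts 3, 10 and 14, with medians of -0.13, 0.25 and 0.29 (all genes -0.01). In macrophages 1, 7 and 10 could be tested, with medians of -0.59, -0.37 and -0.47 (all genes 0.00). *Serpina3n*, an acute phase protease inhibitor, was at 14.7, 14.3, 164 and 103 CPM in SGC, both injury libraries above both controls, with a log2 difference of 3.25 (SE 0.36; edgeR adjusted p = 0.0944). It was called there under 6 of 11 alternatives, among them DESeq2 (adjusted p = 3.86e-05) and the replicate block in edgeR (adjusted p = 0.00828), and in fibroblasts under 3 of 11, with DESeq2 and without either control library. In neurons 1, 12 and 13 genes of the lists could be tested and 1 of the STAT3-responsive genes was called, *Sprr1a*, with 0, 1, 4336 and 2899 UMIs by library (edgeR adjusted p = 0.0173). *Gal*, which encodes galanin, had a log2 difference of 3.36 (SE 0.50; adjusted p = 0.0815) and the transcription factor gene *Atf3* one of 2.90 (SE 0.46; adjusted p = 0.0969), while *Stat3* differed by 0.01.

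Between types, *Cntfr* was at 200, 308, 203 and 248 CPM in SGC, against 28.9, 82.3, 41.3 and 51.1 CPM in fibroblasts. The 2 libraries with 10 or more barrier cells were each at 170 CPM and those of neurons, within the upper limits, at 132 and 66.5 CPM, so barrier cells and neurons were below every SGC library. A *Cntfr* UMI was found in 742 of 1417 SGC, of which 173 also had *Il6st*, beside 256 of all SGC. Against the pooled rest *Cntfr* was higher in SGC by 3.36 on the log2 scale (SE 0.20; edgeR adjusted p = 6.67e-08). Against the mean of the other types edgeR called it higher in SGC, barrier cells, neurons and fibroblasts. The STAT3 inhibitor *Socs3* had its highest mean in non-myelinating Schwann cells (2723 CPM, n = 2 libraries). Myelinating Schwann cells, pericytes and smooth muscle cells (means of 1234, 1263 and 1007 CPM) overlapped fibroblasts. *Socs3* was at 1943, 884, 1332 and 896 CPM in fibroblasts, 850, 296, 830 and 387 CPM in SGC and 623, 257, 434 and 319 CPM in macrophages. In all 3 it was higher in replicate 1 of each condition, as were the immediate early genes, while in neutrophils *Socs3* was at 35.1, 46.6, 138 and 10.9 CPM. *Stat3* was higher than in the pooled rest in neurons by 0.75 (SE 0.25; edgeR adjusted p = 0.00759) and in endothelial cells by 0.58 (SE 0.14; adjusted p = 0.00537).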

How the data were processed

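The authors deposited raw UMI counts per gene and barcode, 1 matrix per library, made with Cell Ranger on mm10 and, per the labels, analysed in Partek, with 1384, 1788, 2509 and 1294 barcodes. Barcodes with 600 to 15000 UMIs, 500 to 4000 genes and under 10% mitochondrial UMIs were kept, the limits of the study's methods. No doublet caller was used, and leaving out cells that reach a second marker list was an alternative. In all, 20 barcode sequences occurred in more than 1 library. No depth correction beyond library size was made, and shares of cells carry counting error only.

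Counts were summed per library and type and tested with edgeR 4.0.16 (quasi-likelihood, TMM, filterByExpr, two-sided, Benjamini-Hochberg over all genes tested), with DESeq2 1.42.0 as an alternative, in R 4.3.3. The scripts were tested on simulated data. Thinning to 1000 UMIs was computed exactly (hypergeometric), over cells with at least 1000 UMIs only. The limit at a count of 0 is 3 counts. Exon overlaps and gene positions are from GENCODE on GRCm38. The members, marker lists, pathway lists and tests were chosen with earlier results of these data known. All 10 members are described, and from each pathway list 2 to 4 genes by smallest adjusted p plus *Socs3*, *Stat3* and *Cntfr*. The fibroblast and neuron subsets, the pooled reference, the immediate early genes and *Il31ra* were added after the data were seen. Alternatives were another normalization, no filter on low counts, all barcodes, a stricter gate of 4 markers, and each library left out.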

Additional observations from a re-analysis of the deposited data

Results flagged for a closer look

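In control replicate 1, 1 barcode that reached no marker list held 27 *Il6* and 83 *Osm* UMIs among its 3900 UMIs, and it enters none of the gated comparisons. These are 31.0% of the *Il6* and 23.0% of the *Osm* UMIs of that library. The same barcode held 28 UMIs of *Mcpt8*, 38 of *Prss34*, 11 of *Cpa3*, 8 of *Fcer1a* and 3 of *Ms4a2*, genes known from basophils and mast cells, and no other of the 6095 filtered cells had UMIs of both *Mcpt8* and *Prss34*. Without it the library's level over all cells went from 20.3 to 14.0 CPM for *Il6* and from 84.1 to 64.8 CPM for *Osm*.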

How the results depend on the processing

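The count of members called between conditions within cell types was 0, and 0 to 1 when 1 library was left out: without control replicate 1 the call was *Il6* in fibroblasts. It was 0 over all cells and in neurons under every alternative run. The count of member and type pairs called higher was 29. It was 19 when a log2 fold change of at least 2 was also required, 14 against the pooled other cells (a reference added after the data were seen), 20 without cells that reach a second list (10 types left), 25 under the stricter gate (11 types left), 24 with DESeq2, 28 with DESeq2's size factors, 30 without the filter on low counts, 35 with all barcodes, 31 without the upper limits and 22 to 29 with 1 library left out. Of the 29, 13 were kept under every alternative that could be run for the type (neutrophils had no fit without cells that reach a second list): *Il11ra1*, *Il6*, *Il6st* and *Osmr* in fibroblasts, *Lifr*, *Osmr* and *Il6st* in endothelial cells, *Osm* and *Il6ra* in macrophages and in the monocyte gate, *Osm* in neutrophils and *Il6* in pericytes.

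Against the pooled other cells 8 log2 fold changes turned negative: *Il11ra1* in SGC (-1.06) and smooth muscle cells (-0.66), *Il6* in the monocyte gate (-0.028), *Il6ra* in endothelial cells (-0.70) and fibroblasts (-1.04), *Il6st* (-0.42) and *Lifr* (-0.19) in SGC and *Osm* in dendritic cells (-1.04). The reference there is weighted by cells. No difference between conditions that turned in sign was called. With 1 library left out, the range of the log2 difference spanned 0 for 9 of 16 named differences: *Il6* over all cells -0.68 (without injury replicate 1) to 2.37 (without control replicate 1), *Lifr* over all cells -0.85 to 0.11 and in macrophages -0.98 to 0.14, *Il6st* in neurons -1.09 to 0.090, *Osmr* in endothelial cells -0.11 to 0.69, and *Osm* over all cells -0.83 to 2.17, in macrophages -0.85 to 0.76, in the monocyte gate -1.52 to 0.13 and in neutrophils -1.09 to 0.64. For *Osm* the lowest value came without injury replicate 1 and the highest without control replicate 1 in each case. Other settings moved *Osm* over all cells to 0.0050 with DESeq2's size factors, 0.028 with all barcodes, 0.039 without the filter, 0.33 without the barcode with most *Osm* and 0.46 with the replicate block, and *Osm* in macrophages to -0.061 with all barcodes and -0.059 under the stricter gate. The cause was not tested. Without injury replicate 2 *Osmr* in neurons did not pass the filter and gave no value. Thinning moved 38 of 41 shares of cells.

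With the replicate number as a block, 0 members were called within types, over all cells or in neurons. The block called 101 genes in macrophages (36 higher, 65 lower), 3 in fibroblasts, 6 in the monocyte gate and 1 in SGC against 0, and 66 in neurons against 11. In the 7 types the difference between replicates 1 and 2 in control correlated with that in injury at 0.23 to 0.55 over genes, but with 2 pairs the numbers are not shown to pair the libraries. The methods speak of batches of pooled mice, and neither they nor the labels say which libraries shared one. Without the filter on low counts the test called 202 genes in macrophages and 522 in neurons. With 1 library left out it called up to 334 in macrophages, 172 in fibroblasts and 128 in neurons. With 2 libraries per condition and levels of a few UMIs per library, depth limits *Lif*, *Cntf* and *Clcf1* most.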
